A study of Homo sapiens with 4 samples.

Results

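The network described here is the set of 8 genes that encode MYC, its obligate partner MAX and the proteins that compete for MAX, namely MXD1, MXI1, MXD3, MXD4, MNT and MGA. The members were picked by gene name, with earlier results of these data known, and all 8 had a row among the 20913 genes of the count table. RNA-seq was done on T98G cells, an established human glioblastoma line, that overexpressed LGP2 (replicates 2 and 3) or carried a vector (replicates 2 and 3), so there were 2 libraries per group. LGP2, the product of DHX58, is a cytosolic RNA helicase related to RIG-I and MDA5. The column headers of the LGP2 libraries carry the word flag. The sources used here give neither the promoter of the construct nor whether each line was a clone or a pool. The labels list the cell type as astroblastoma and their growth text names 293T cells, while titles and cell line fields name T98G. Since nothing says that replicates were separate cultures, the spread behind the p-values is that between these samples and may be technical.

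MYC is a transcription factor of the basic helix-loop-helix leucine zipper class that binds DNA only as a dimer with MAX, at a short palindrome called the E-box, CACGTG. MYC-MAX dimers recruit histone acetyltransferases and release paused polymerase at genes for ribosome assembly, metabolism and the cell cycle. The MXD proteins, MXI1 and MNT also dimerise with MAX, but bring the SIN3 and histone deacetylase corepressors to the same motif, and MGA carries MAX into a Polycomb complex called PRC1.6. In glioblastoma MYC is known for supporting proliferation and the stem-like state, and its messenger RNA is short-lived and responds to growth factors.

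DNA windows of 300 bases around gene starts (RefSeq, GRCh38.p14, 250 bases before the start and 50 after) were available for 7 of the 8 members, some with several starts. MYC was the member without a window, so its promoter was not searched. The E-box was searched as CACGTG, which reads the same on both strands. It was found for MNT and MXD4, that is for 2 of 7 members, against 12.1% of the 11906 genes of the count table with a window. The windows of MNT and MXD4 are shown because they hold the motif through which the network acts, and that of MLX, which is a further dimer partner of MNT, MXD1 and MXD4, because it holds the motif too. Capitals mark the E-box, and each sequence is read 5′ to 3′ on the gene's own strand.
MNT, chr17:2401011-2401310, minus strand: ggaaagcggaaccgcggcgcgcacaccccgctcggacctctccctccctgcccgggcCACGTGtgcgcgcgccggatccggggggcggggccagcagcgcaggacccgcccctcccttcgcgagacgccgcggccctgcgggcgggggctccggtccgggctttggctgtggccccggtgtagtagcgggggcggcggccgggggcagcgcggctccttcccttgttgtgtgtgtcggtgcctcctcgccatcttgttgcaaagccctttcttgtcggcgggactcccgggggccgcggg
MXD4, chr4:2262060-2262359, minus strand: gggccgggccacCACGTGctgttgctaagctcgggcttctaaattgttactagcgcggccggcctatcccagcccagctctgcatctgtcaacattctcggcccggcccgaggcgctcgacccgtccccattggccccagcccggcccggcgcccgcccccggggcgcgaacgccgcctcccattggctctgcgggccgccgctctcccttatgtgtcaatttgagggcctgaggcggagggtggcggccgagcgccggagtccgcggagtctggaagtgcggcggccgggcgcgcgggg
MLX, chr17:42566850-42567149, plus strand: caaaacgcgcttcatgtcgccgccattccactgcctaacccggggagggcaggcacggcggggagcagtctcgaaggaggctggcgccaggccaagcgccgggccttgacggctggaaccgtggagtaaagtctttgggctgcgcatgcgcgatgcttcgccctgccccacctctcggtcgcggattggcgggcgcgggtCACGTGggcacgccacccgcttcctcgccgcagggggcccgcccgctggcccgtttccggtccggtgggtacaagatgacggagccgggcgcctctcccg
The motif begins at position -193 relative to the start of MNT, at -238 in MXD4 and at -50 in MLX. A match is a description of these letters and not evidence of a bound site.

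Library totals ran from 56033379 to 63932198 counts, and counts were scaled to CPM, the usual unit of reads relative to the library total, here after TMM scaling. DHX58, the overexpressed gene, was at 542 and 523 CPM in the LGP2 overexpression libraries, against 6.20 and 9.40 CPM in the vector libraries, a log2 fold change of 6.09 (SE 0.24) with an adjusted p of 1.91e-06 in edgeR. Of 17863 genes tested, 3 were called at an adjusted p under 0.05, which is 0.0168% of them, all higher and DHX58 among them. The glioblastoma markers VIM and CD44 were at 2842 CPM or more and 1652 CPM or more in every library, SOX9 was between 44.5 and 59.4 CPM, and NES and GFAP were each under 1 CPM. OLIG2 was between 1.6 and 3.49 CPM. Summed over the 6 of 9 such markers with a row, the level was 4644 to 5059 CPM with LGP2 overexpression and 4801 to 6288 CPM in vector. VIM and CD44 made up nearly all of it. The 4 of 9 microglia and macrophage markers with a row summed to 81.1 to 90.3 CPM with LGP2 overexpression and 94.0 to 116 CPM in vector, nearly all of it CD68, while CD14 had no count in either LGP2 overexpression library. The 3 of 7 neuron markers with a row summed to 39.0 to 46.9 CPM with LGP2 overexpression and 31.5 to 33.5 CPM in vector. MAP2 made up most of these sums, at 39.3 and 30.1 CPM with LGP2 overexpression, against 24.35 and 22.9 CPM in vector. For SNAP25 and SYP the groups overlapped. The part of these differences in the results was not tested.

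None of the 8 members was called by edgeR, against that background of 0.0168%, and none by DESeq2 or limma-voom. For all 8, the 95% interval of the fold change excluded a 2-fold change in either direction, which held for 61.1% of all genes tested. The members' log2 fold changes ran from -0.45 for MYC to 0.28 for MGA, with 3 above 0 and 5 below and a median of -0.07, beside a median of -0.01 over all genes tested. Of all genes tested, 48.7% lay above 0 and 51.3% below. At an unadjusted p under 0.05 there was 1 member, MYC, where 4.46% of all genes tested lay under that p in either direction and 1.46% as lower. The groups did not overlap for 3 members, MYC, MNT and MXI1, each lower with LGP2 overexpression, while 33.2% of all genes tested had groups that did not overlap, 16.5% as lower and 16.7% as higher. The members' share without overlap, 3 of 8, was near the 33.2% for either direction. All 3 were lower, a direction that held 16.5% of all genes tested, and this was not tested. In bulk RNA a difference in the number of cells of a type and one in RNA per cell cannot be told apart.

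**Figure D1:**
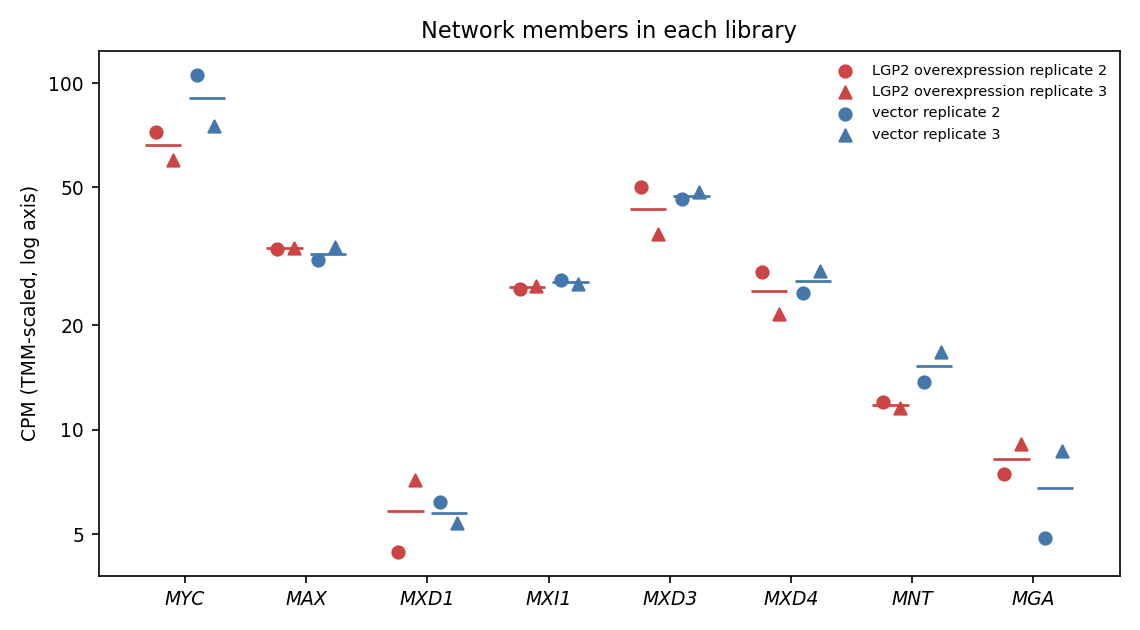
CPM of each member (log axis) in the LGP2 overexpression libraries (red, left) and the vector libraries (blue, right), with circles for replicate 2, triangles for replicate 3 and short lines for group means. MYC stood at 106 CPM in vector replicate 2 while the other libraries lay between 60.2 and 75.3 CPM.

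MYC, the activating member, had the largest negative difference of the 8. It had 4059 and 3918 counts in the LGP2 overexpression libraries, against 6431 and 4572 counts in the vector libraries. Scaled, these were 72.2 and 60.2 CPM with LGP2 overexpression, against 106 and 75.3 CPM in vector. Both LGP2 overexpression libraries lay below both vector libraries, but LGP2 overexpression replicate 2 and vector replicate 3 were close, and the 2 vector libraries differed by 0.49 on the log2 scale. The log2 fold change of -0.45 (95% interval -0.86 to -0.05, SE 0.18) did not pass, with an edgeR adjusted p of 0.998. Its unadjusted p of 0.0315 ranked 496 among the genes tested. The size rested on vector replicate 2, the library with the highest MYC. Without it the log2 fold change was -0.19 (adjusted p = 0.9999 by edgeR), and without vector replicate 3 it was -0.68 (adjusted p = 0.00506 by edgeR). That last fit called 432 genes in all and holds a single vector library, which is assumed to vary like the LGP2 overexpression pair. In GENCODE 29 (GRCh38) MYC lies on chromosome 8, 127735434 to 127741434, plus strand, and no exon of another gene overlaps its exons.

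MAX, the partner that the other members share, was nearly level across libraries. It was at 33.2 and 33.5 CPM with LGP2 overexpression, against 30.8 and 33.6 CPM in vector, and the groups overlapped. The log2 fold change of 0.05 (SE 0.17, 95% interval -0.33 to 0.43) did not pass. The direction turned to -0.01 without vector replicate 2. The gene lies on chromosome 14, 65006174 to 65102695, minus strand, in GENCODE 29.

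Among the repressors, MNT was the one with the largest difference. MNT, which is made in most cell types and is regarded as the broadest antagonist of MYC, had 675 and 751 counts with LGP2 overexpression, against 837 and 1018 counts in vector. Scaled, it averaged 11.8 ± 0.326 CPM with LGP2 overexpression and 15.3 ± 2.12 CPM in vector (SD, n = 2 each). The groups did not overlap, and the LGP2 overexpression pair lay closer together than the vector pair. Its log2 fold change of -0.38 (95% interval -0.82 to 0.07, SE 0.20) did not pass, with an edgeR adjusted p of 0.998. It ran from -0.51 without vector replicate 2 to -0.23 without vector replicate 3, and so kept its sign in each fit that left out 1 library. MNT lies on chromosome 17, 2384060 to 2401118, minus strand.

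MXI1, also known as MXD2, had the smallest spread of all members. It was at 25.5 and 26.0 CPM with LGP2 overexpression, against 27.0 and 26.3 CPM in vector. The groups did not overlap, yet the log2 fold change was only -0.05 (SE 0.18, 95% interval -0.44 to 0.34). MXD1, whose product rises as many cell types leave the cycle and differentiate, was at 4.44 and 7.18 CPM with LGP2 overexpression, against 6.17 and 5.37 CPM in vector. Both vector values lay between the values of the LGP2 overexpression pair, and its log2 fold change was 0.01 (95% interval -0.64 to 0.67, SE 0.30). Without LGP2 overexpression replicate 2 it was 0.31 and without LGP2 overexpression replicate 3 it was -0.38. MXI1 lies on chromosome 10, 110207605 to 110287365, plus strand, and MXD1 on chromosome 2, 69897688 to 69942945, plus strand, where it shares an exon with SNRNP27, a spliceosome gene with a log2 fold change of 0.10 (SE 0.16).

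MXD3, the family member found in cells that are still cycling, was at 50.01 and 36.6 CPM with LGP2 overexpression, against 46.2 and 48.5 CPM in vector. MXD4 was at 28.5 and 21.6 CPM with LGP2 overexpression, against 24.9 and 28.7 CPM in vector. For both genes LGP2 overexpression replicate 3 was the lowest of the 4 libraries and the groups overlapped. MXD3 had a log2 fold change of -0.13 (95% interval -0.53 to 0.28) and MXD4 of -0.10 (95% interval -0.54 to 0.35), with SEs of 0.18 and 0.20. Without LGP2 overexpression replicate 3 both turned upward, to 0.08 for MXD3 and 0.09 for MXD4. MXD3 lies on chromosome 5, 177301461 to 177312757, minus strand. It shares an exon with RAB24 on the same strand and overlaps PRELID1 on the other, so its counts are uncertain. RAB24, which encodes a small GTPase linked to autophagy, had a log2 fold change of -0.34 (SE 0.17), and PRELID1, which encodes a mitochondrial lipid transfer protein, had -0.17 (SE 0.17). MXD4 lies on chromosome 4, 2247432 to 2262294, minus strand.

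MGA, the large scaffold that joins MAX to PRC1.6, was the member with the highest positive difference and the widest interval. It was at 7.43 and 9.08 CPM with LGP2 overexpression, against 4.87 and 8.69 CPM in vector. Vector replicate 2 was low and the other libraries were close together. Vector replicate 3 lay between the LGP2 overexpression values, so the groups overlapped. The log2 fold change of 0.28 (95% interval -0.38 to 0.95, SE 0.30) did not pass, with an edgeR adjusted p of 0.998. Without vector replicate 2 it was -0.07, and without vector replicate 3 it was 0.76 (adjusted p = 0.257 by edgeR). MGA lies on chromosome 15, 41621224 to 41773081, plus strand. In GENCODE 29, MAX, MXI1, MNT and MGA each overlap an exon of 1 gene on the opposite strand, so reads of those genes could be among their counts.

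**Figure D2:**
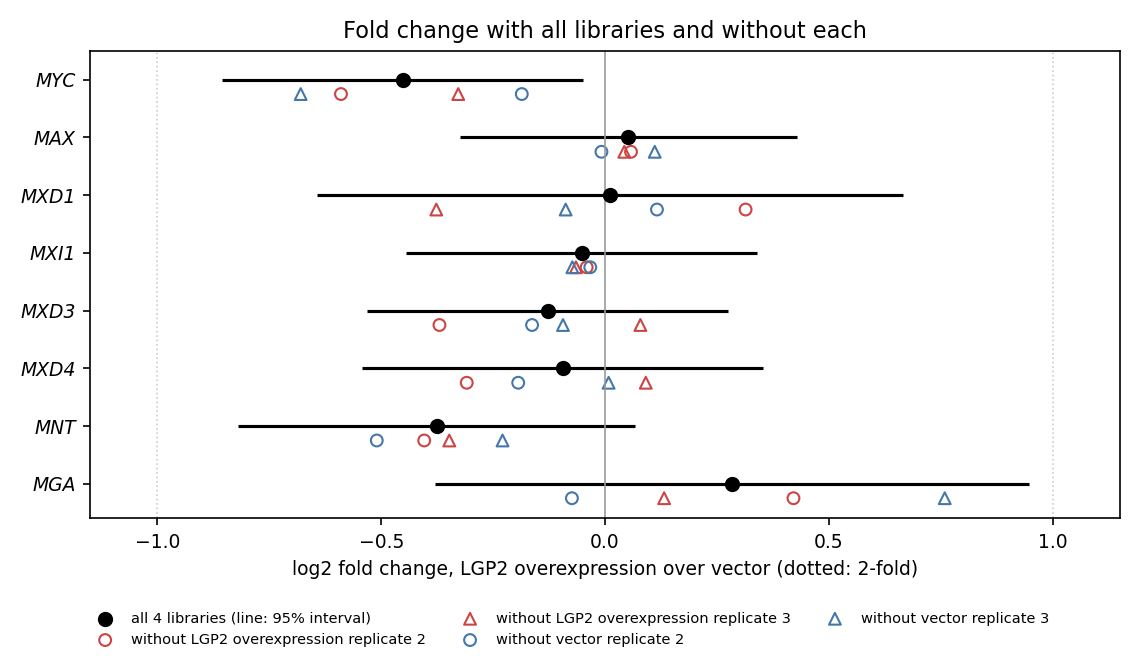
Log2 fold change of each member, LGP2 overexpression over vector, with all 4 libraries (black, line for the 95% interval) and without each library in turn (open symbols, red for an LGP2 overexpression library left out and blue for a vector library, circles for replicate 2 and triangles for replicate 3). MYC, MNT and MXI1 stayed below 0 in each of these fits, and the other 5 members lay on both sides of 0.

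Levels were compared between genes only as CPM per kilobase of exon, with the lengths of all exons merged in GENCODE 29, whether or not the authors counted with that annotation. MYC was the most abundant member, at 22.05 ± 2.82 CPM per kilobase with LGP2 overexpression and 30.2 ± 7.19 in vector (SD, n = 2 each). MXD3 followed at 8.41 ± 1.83 with LGP2 overexpression and 9.18 ± 0.321 in vector, and MAX at 7.53 ± 0.0533 with LGP2 overexpression and 7.27 ± 0.435 in vector, in the same unit. MXD3 and MAX overlapped across libraries and could not be ordered. The level of MXD3 is also uncertain, since its counts may hold reads of RAB24 and PRELID1. MXI1 was at 5.59 ± 0.0647 CPM per kilobase with LGP2 overexpression and 5.79 ± 0.106 in vector, and MXD4 at 3.55 ± 0.691 with LGP2 overexpression and 3.79 ± 0.380 in vector. MNT averaged 1.35 ± 0.0374 CPM per kilobase with LGP2 overexpression and 1.75 ± 0.242 in vector. MXD1 came next, at 0.915 ± 0.304 with LGP2 overexpression and 0.908 ± 0.0893 in vector, and MGA was lowest at 0.468 ± 0.0661 with LGP2 overexpression and 0.384 ± 0.153 in vector. From MAX downward no 2 neighbours in this order overlapped across the 4 libraries. The level of MXD1 and its place in the order are uncertain too, since its counts may hold reads of SNRNP27.

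The ratio of MYC to MAX, taken within a library on the scale per kilobase, was 3.21 and 2.65 with LGP2 overexpression, against 5.07 and 3.31 in vector. Both LGP2 overexpression values lay below both vector values, the nearest pair being 3.21 and 3.31. The mean difference was -1.26, with a two-sided exact permutation p of 0.33, the smallest that 2 against 2 libraries can give. It ran from -2.14 without vector replicate 3 to -0.38 without vector replicate 2. MXD1, MXD3, MXD4, MXI1 and MNT together stood to MYC at 0.888 and 0.910 with LGP2 overexpression, against 0.593 and 0.875 in vector, where vector replicate 2 was the library apart. The mean difference of that ratio was 0.165 (two-sided exact permutation p = 0.33) and 0.0239 without vector replicate 2. MYC made up 45.1% and 43.2% of the summed level of the 8 members with LGP2 overexpression, against 55.6% and 45.5% in vector. MXD3, with counts uncertain for its overlap with RAB24 and PRELID1, enters this sum and the one set against MYC. So does MXD1, which shares an exon with SNRNP27.

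**Figure D3:**
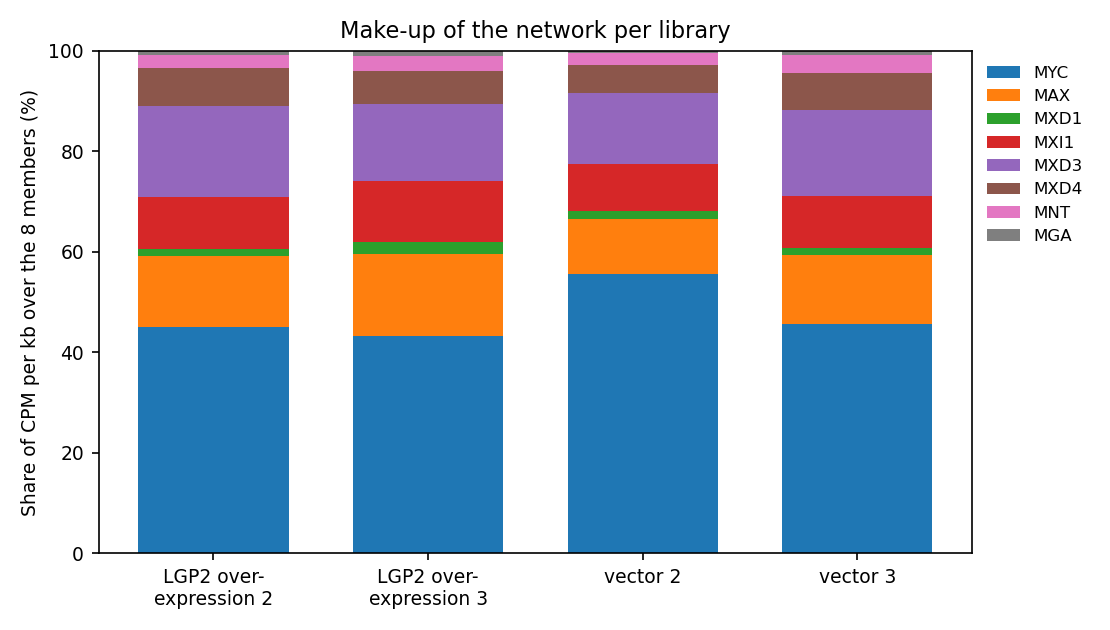
Share of each member in the summed CPM per kilobase of the 8 members, in percent, for the LGP2 overexpression libraries (left) and the vector libraries (right). MYC took 55.6% in vector replicate 2, against 43.2% to 45.5% elsewhere.

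The paralogues of MYC and the parallel MLX arm were also examined. MYCL, a paralogue of MYC, had 4 and 8 counts with LGP2 overexpression, against 24 and 4 counts in vector, and was removed by the filter on low counts. MYCN, the paralogue known from neural tumours, and MLXIPL, a glucose-responsive partner of MLX, had no row under these symbols in the count table. MLX was at 121 and 113 CPM with LGP2 overexpression, against 129 and 119 CPM in vector, with a log2 fold change of -0.09 (SE 0.14) that did not pass. Per kilobase MLX was at 27.4 ± 1.33 with LGP2 overexpression and 29.1 ± 1.70 in vector (SD, n = 2 each), a range that overlapped that of MYC. MLX overlaps PSMC3IP on the other strand, which had a log2 fold change of -0.05 (SE 0.20). MLXIP, which encodes MondoA, the nutrient-sensing partner of MLX, was at 22.9 and 19.2 CPM with LGP2 overexpression, against 21.9 and 22.5 CPM in vector, and its log2 fold change was -0.08 (SE 0.19).

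Among the genes nearest to MYC in their profile over the 4 libraries were JUND and BHLHE40. Likeness was the root mean square distance between log2 CPM values centred on each gene's mean, over the 8950 protein-coding genes that averaged 10 CPM or more. The distances were 0.0430 for JUND, an AP-1 subunit, and 0.05003 for BHLHE40, a helix-loop-helix repressor, and 58 genes lay within 0.1. JUND was at 34.7 and 29.3 CPM with LGP2 overexpression, against 47.7 and 35.6 CPM in vector. BHLHE40 was at 81.0 and 66.5 CPM with LGP2 overexpression, against 110 and 85.1 CPM in vector. Like MYC, both were highest in vector replicate 2 and lowest in LGP2 overexpression replicate 3. Both genes were picked for likeness to MYC in these libraries, so this shared order is no separate observation. With 4 libraries a profile has few free values, and many genes can share it.

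Cofactors that MYC recruits to activate genes were counted as a list of 18, of which 13 lay below 0 and 5 above, around a median log2 fold change of -0.05, and none was called. For this and each later list, the background with TMM scaling was 48.7% of all genes tested above 0 and 51.3% below. Scaled by library totals alone, the split was 9 below and 9 above. That scaling also moved the median over all genes tested, from -0.008 to 0.038. The shift applies to every list split given here by library totals alone. RUVBL1, an ATPase of the TIP60 and INO80 complexes, was at 238 and 226 CPM with LGP2 overexpression, against 245 and 200 CPM in vector, and its relative RUVBL2 had a log2 fold change of -0.05 (SE 0.17). CCNT1, the cyclin of the elongation kinase P-TEFb, had the highest log2 fold change of the list and was at 53.3 and 54.2 CPM with LGP2 overexpression, against 38.9 and 42.1 CPM in vector. That difference of 0.41 (SE 0.15, adjusted p = 0.998 by edgeR) did not pass.

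Of 21 genes that act on the stability of the MYC protein, 9 lay above 0 and 12 below, with a median of -0.07 and none called. CIP2A, an inhibitor of the phosphatase PP2A that protects MYC from degradation, was at 34.8 and 43.7 CPM with LGP2 overexpression, against 17.8 and 22.03 CPM in vector. The groups were well apart, and the log2 fold change of 0.98 (SE 0.20, 95% interval 0.53 to 1.42) was the highest of any gene in the lists for the network's partners, regulators and targets, but the adjusted p was 0.713 by edgeR. PPP2CA, the catalytic subunit of PP2A, had -0.07 (SE 0.15). USP36, a nucleolar deubiquitinase of MYC, was the lowest at -0.31 (SE 0.18), and USP22, a deubiquitinase of the SAGA complex, was at 204 and 185 CPM with LGP2 overexpression, against 219 and 238 CPM in vector.

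The corepressors of the MXD and MNT proteins showed 7 of 16 genes above 0 and 9 below, with a median of -0.05 and none called. The deacetylase HDAC1 had a log2 fold change of -0.04 (SE 0.16) and the histone chaperone RBBP4 -0.09 (SE 0.14). SAP18 was the lowest at -0.22 (SE 0.14), and BRMS1L, a further SIN3 complex subunit, the highest at 0.75 (SE 0.28, adjusted p = 0.998 by edgeR). BRMS1L was at 9.85 and 7.80 CPM with LGP2 overexpression, against 4.13 and 6.39 CPM in vector. The partners of MGA in PRC1.6 had 6 of 14 genes above 0 and 8 below, with a median of -0.02 and none called, and their log2 fold changes spanned less than those of the other regulator and target lists, from -0.17 for TFDP1, a dimer partner of E2F factors, to 0.20 for RYBP, a subunit of variant PRC1. Scaled by library totals alone, 9 of these 14 lay above 0 and 5 below. CBX3, a heterochromatin protein of the complex, was at 231 and 292 CPM with LGP2 overexpression, against 238 and 247 CPM in vector.

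Target genes of MYC were counted in 3 lists, none with a called member. For ribosome biogenesis and the nucleolus, 23 of 34 genes lay above 0 and 11 below, with a median of 0.07, or 28 above and 6 below when scaled by library totals alone. The list's score, the median over its genes of the log2 CPM centred on each gene's mean, was 0.02 and 0.07 with LGP2 overexpression, against 0.15 and -0.20 in vector. The vector libraries thus lay on either side of the LGP2 overexpression pair, and the list's median was 0.23 without vector replicate 2 and -0.11 without vector replicate 3. NCL, or nucleolin, was at 592 and 635 CPM with LGP2 overexpression, against 518 and 550 CPM in vector, with a log2 fold change of 0.20 (SE 0.16), and NPM1, or nucleophosmin, had 0.13 (SE 0.19). NOP58, a core protein of box C/D small nucleolar particles, was the highest at 0.60 (SE 0.19, adjusted p = 0.998 by edgeR), and the importin IPO4 the lowest at -0.43 (SE 0.22). NOP58 was at 47.1 and 66.4 CPM with LGP2 overexpression, against 34.2 and 40.6 CPM in vector.

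Metabolic and growth targets had 13 of 31 genes above 0 and 18 below, with a median of -0.03, or 16 above and 15 below by library totals alone. Without vector replicate 2 the split was 22 above and 9 below, at a median of 0.09. PKM and LDHA, enzymes at the end of glycolysis, stood at -0.08 (SE 0.24) and 0.14 (SE 0.20) on the log2 fold scale. TFRC, the transferrin receptor, was the highest of the list, at 431 and 571 CPM with LGP2 overexpression, against 342 and 335 CPM in vector. Its log2 fold change of 0.56 (SE 0.17, adjusted p = 0.998 by edgeR) did not pass, nor did that of CAD, the enzyme that starts pyrimidine synthesis, the lowest at -0.30 (SE 0.16). Of the cell cycle targets 8 of 21 tested lay above 0 and 13 below, with a median of -0.03, or 12 above and 9 below by library totals alone. CDK4 had -0.05 (SE 0.16) and CKS1B, a cofactor of SKP2, -0.15 (SE 0.15), between ID2, an inhibitor of differentiation, at -0.76 (SE 0.30) and the cyclin CCNE2 at 0.62 (SE 0.22), neither of which passed.

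The windows of these targets were searched for the E-box as well, and 46.4% of the 28 ribosome biogenesis genes with a window held CACGTG, 40.7% of the 27 metabolic genes and 33.3% of the 15 cell cycle genes, beside 12.1% of all genes with a window. Genes with and without it had close medians. Over the 3 target lists the median log2 fold change was 0.00 for the 29 genes with the motif and 0.03 for the 41 with a window that lacked it. Over all genes tested, the 1398 with the motif had a median of -0.005 (quartiles -0.14 and 0.16). The 9977 with a window that lacked it had a median of -0.004 (quartiles -0.15 and 0.18).

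Genes known as repressed by MYC, several of them through the zinc-finger factor MIZ1, were listed together with the gene for MIZ1 itself (ZBTB17). Of 15 genes 2 were above 0 and 13 below, with a median of -0.20 beside -0.01 over all genes tested, and none was called. GADD45A, a stress-induced growth arrest gene, was the lowest at 63.9 and 64.9 CPM with LGP2 overexpression, against 175 and 74.7 CPM in vector. Vector replicate 2, the library in which MYC was also highest, stood far above the other 3, and the log2 fold change of -0.96 (SE 0.30, adjusted p = 0.998 by edgeR) did not pass. NDRG1, a hypoxia- and stress-responsive gene, was at 1241 and 1021 CPM with LGP2 overexpression, against 1539 and 1055 CPM in vector, and ITGB1, the integrin beta-1 chain, was the highest at 0.19 (SE 0.16). Leaving out LGP2 overexpression replicate 2 took the list's median to -0.35, and it was at most -0.13 when any other library was left out.

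Genes that act at the MYC locus or on its transcript had 3 of 16 tested above 0 and 13 below, with a median of -0.05 and none called, or 8 and 8 by library totals alone. NME2, described as a regulator of the MYC promoter, had a log2 fold change of -0.11 (SE 0.18) and HNRNPK, which binds a promoter element of MYC, -0.04 (SE 0.16). SMAD3, which carries the TGF-beta signal that represses MYC, was at 190 and 180 CPM with LGP2 overexpression, against 244 and 212 CPM in vector. IGF2BP3, a reader that stabilises MYC messenger RNA, was at 108 and 129 CPM with LGP2 overexpression, against 77.8 and 104 CPM in vector. Neither difference passed, at a log2 fold change of -0.30 (SE 0.15) for SMAD3 and 0.38 (SE 0.17) for IGF2BP3.

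**Figure D4:**
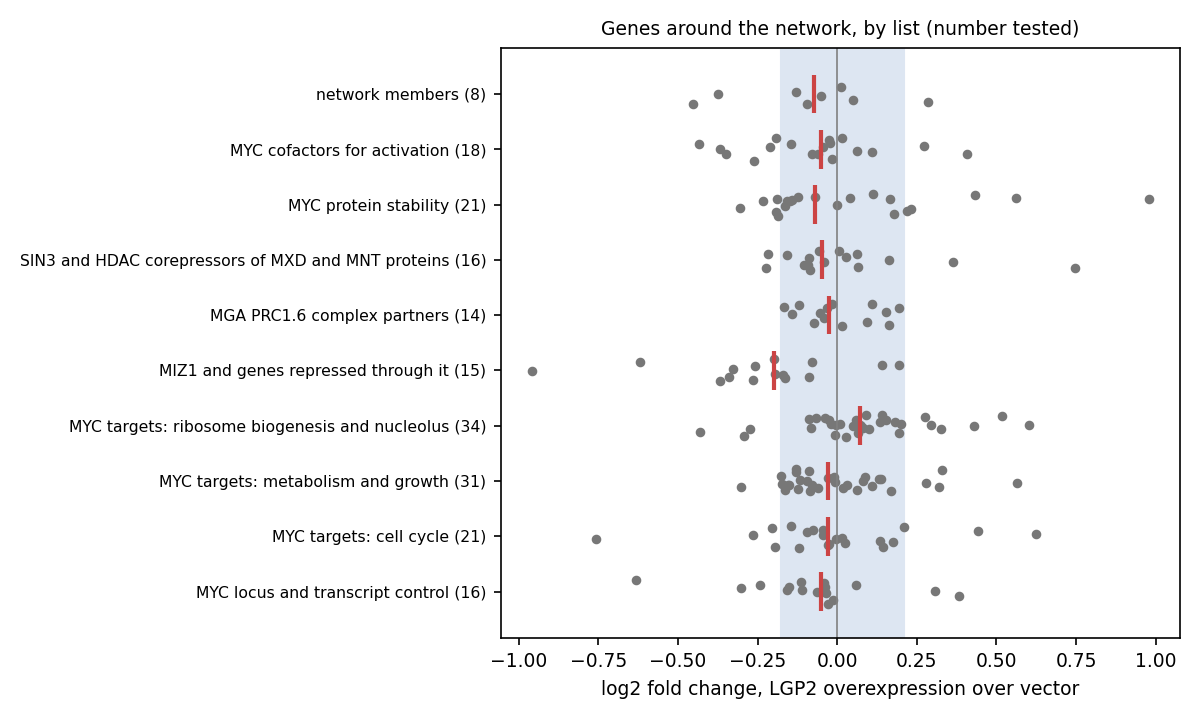
Log2 fold change, LGP2 overexpression over vector, of each tested gene (grey points, spread vertically at random) by list, with list medians in red and the interquartile range of all tested genes shaded from -0.18 to 0.21. Medians lay between -0.20 for the list of MIZ1 and MYC-repressed genes and 0.07 for the ribosome biogenesis list.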

How the data were processed

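RNA-seq of 4 T98G libraries was analysed, 2 from cells overexpressing LGP2 and 2 from vector cells. The deposited table gives unnormalized gene counts, 1 column per library, under human gene symbols. The submitters' processing notes name the build mm10, a mouse build. The sources used here name no aligner, counter, annotation or strand setting, so overlapping genes cannot be told apart with certainty. Counts were tested with edgeR 4.0.16 in R 4.3.3 (quasi-likelihood test, two-sided, TMM scaling, filterByExpr, no covariate), on 17863 genes, with 3050 removed by the filter. Calls needed a Benjamini-Hochberg adjusted p under 0.05 over all genes tested. SEs were taken from the F statistic. DESeq2 1.42.0 and limma-voom (limma 3.58.1) were among the alternatives. The fit was tested on simulated data. Coordinates and lengths come from GENCODE 29. Log2 CPM used a prior count of 2.

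Members and lists were chosen with earlier results of these data known. Beside all members and the MLX arm, the text names, from each list of regulators or targets, the 2 members with the highest mean CPM and those with the lowest and highest log2 fold change among those averaging 5 CPM or more, and the 3 genes nearest to MYC. Of the genes this rule names, 2 are not reported here. List medians were not tested. NES, GFAP, VIM, CD44, SOX9, OLIG2, CD14, CD68, MAP2, SNAP25, SYP, ZBTB17 and genes overlapping members are outside that rule.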

Additional observations from a re-analysis of the deposited data

How the results depend on the processing

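Library totals ran from 56033379 to 63932198 counts, with 2 libraries in each group. MYC, MNT and MXI1 kept their sign in every alternative run, and MYC passed only without vector replicate 3, a fit with a single vector library. MXI1 stayed close to 0, from -0.073 to -0.033 without 1 library and from -0.055 to -0.006 in the other alternatives. Under the alternatives that kept all libraries the log2 fold change of MYC ran from -0.45 to -0.40 and that of MNT from -0.38 to -0.33. Leaving out 1 library moved the count of members called between 0 and 1 and that of all genes called between 2 and 432. Log2 fold changes then ran from -0.68 to -0.19 for MYC, -0.008 to 0.111 for MAX, -0.38 to 0.31 for MXD1, -0.370 to 0.079 for MXD3, -0.309 to 0.091 for MXD4 and -0.074 to 0.759 for MGA. List medians ran from -0.139 to -0.029 for cofactors, -0.081 to -0.040 for protein stability, -0.059 to 0.038 for PRC1.6, -0.35 to -0.13 for the MIZ1 list, -0.11 to 0.23 for ribosome biogenesis, -0.142 to 0.091 for metabolism, -0.075 to 0.029 for the cell cycle and -0.130 to -0.015 for the MYC locus. The cause was not tested.

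With the replicate number as a block, 8 genes were called, no member among them, and MXD1 was at -0.024. MYC was then at -0.44, with an unadjusted p of 0.00742 and an adjusted p of 0.508 by edgeR. The labels do not say that the number marks a shared culture, so it was not taken to pair samples. Differences between replicates 2 and 3 correlated across genes at 0.03 between the groups. With 2 libraries per group that value cannot decide whether samples were paired. MXD1 was also below 0 with limma-voom, at -0.01. Counts of called genes were 22 with DESeq2, 6 with limma-voom, 6 at 5 CPM or more in 2 libraries and 1 with no filter. With library totals alone the list medians were -0.003 for cofactors, -0.020 for protein stability, -0.004 for SIN3 and HDAC, 0.021 for PRC1.6, 0.021 for metabolism and 0.017 for the cell cycle. The median over all genes tested was then 0.038, against -0.008 with TMM scaling.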
